A study of Mus musculus with 15 samples.

Results

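Mouse CD8+ T cells kept with antigen-bearing dendritic cells for 22 h carried more RNA of 16 DNA replication genes and 9 mitosis genes than cells kept with them for 8 h, and less RNA of the cell cycle inhibitor Cdkn1a, of the NF-kB subunit gene Relb, of the NF-kB target Birc3 and of the activation marker Cd69. The calls depend on single libraries: without library 1 of 8 h no replication or mitosis gene passed the test. Without library 2 of both times 7 replication genes passed, but no mitosis gene did, nor did Cdkn1a, Relb, Birc3 or Cd69. A fit of the dendritic cell libraries alone, without their numbering as a pairing, kept 0 of the calls. The comparison takes the 3 dendritic cell libraries of 22 h against the 3 of 8 h, which are 6 of the 15 libraries, and covers 10831 of the 17493 genes in the count tables, those with enough counts to test. Every library came from CD8+ OT-I T lymphocytes of spleen and lymph nodes of female mice of the OT-1 strain, C57BL/6-Tg(TcraTcrb)1100Mjb/Crl. OT-I cells carry a transgenic T cell receptor for an ovalbumin peptide held by MHC class I. The unstimulated cells were taken at 0 h. For each dendritic cell (DC) library 50000 T cells per well were stimulated with 20000 dendritic cells grown with Flt-3Ligand, which had been loaded with SIITFEKL, an altered form of that peptide. Viable CD8+ CD103- cells were sorted afterwards. For the immunofilament (IF) libraries the same number of T cells received immunofilaments, synthetic filaments titled IF-pMHC(SIIT)/IL-2 (peptide-loaded MHC and interleukin-2), at 5 ng/ml for 8 h or 22 h in place of dendritic cells. Each of these 5 groups has 3 libraries, titled Don1 to Don3 in every group and called replicates 1 to 3 here. The labels do not spell out what Don stands for, and they give no age. If the libraries are not from separate animals or cultures, the p-values measure only the spread between them, which may be technical.

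A naive CD8+ T cell rests outside the cell cycle. Recognition of antigen sets off within hours a wave of early genes, among them targets of NF-kB, NFAT and AP-1 and the surface marker CD69, and the cell then grows before it first copies its DNA. Entry into DNA synthesis is driven by E2F transcription factors, which switch on genes for origin licensing, nucleotide supply and replication, and genes of chromosome segregation follow later in the cycle through B-MYB, FOXM1 and the DREAM complex. Activated cells also come to make granzymes and cytokines, under transcription factors that include EOMES and IRF4.

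The 6 DC libraries held between 6490604 and 10992612 counts, and mitochondrial genes took 11.5% to 15.7% of them. Replicate 2 stood apart at both times. Among 6972 genes with a mean of at least 10 CPM (counts scaled to the depth of the library), replicate 2 differed by more than 2-fold from both other replicates, on the same side at both times, for 78 genes that it had higher and 58 that it had lower. The corresponding numbers were 0 and 0 for replicate 1 and 4 and 7 for replicate 3. The genes that replicate 2 had higher include Gzmb, Ifng, Myc, Tnfrsf9 and Irf8. Irf8, an interferon-induced transcription factor, measured 74.4, 262 and 60.2 CPM in replicates 1, 2 and 3 at 8 h and 46.7, 519 and 27.3 CPM at 22 h. Results are therefore also given without replicate 2, and with the replicate number in the model.

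With the group means alone in the model, 52 genes differed between 22 h and 8 h (edgeR quasi-likelihood test, Benjamini-Hochberg adjusted p under 0.05), or 0.480% of those tested. Of these, 41 were higher at 22 h (0.379%) and 11 were lower (0.102%), and for each of the 52 all 3 libraries of 1 time lay above all 3 of the other. Over all tested genes 745 (6.88%) had every 22 h library above every 8 h library and 757 (6.99%) had every one below. The log2 fold changes of the 41 higher genes ran from 0.84 to 4.50, with 26 of them at 2 or more, and those of the 11 lower genes from -3.77 to -0.66. The median over all tested genes was 0.002. The number of calls rests on single libraries: it was 1 without 8 h replicate 1 (the lower gene Arap2), 13 without 8 h replicate 2, 26 without 8 h replicate 3, 15 without 22 h replicate 1, 19 without 22 h replicate 2 and 138 without 22 h replicate 3. Without replicate 2 at both times it was 19, of which 13 higher genes and 1 lower gene are among the 52, and all 52 kept their direction in each of these fits.

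**Figure D1:**
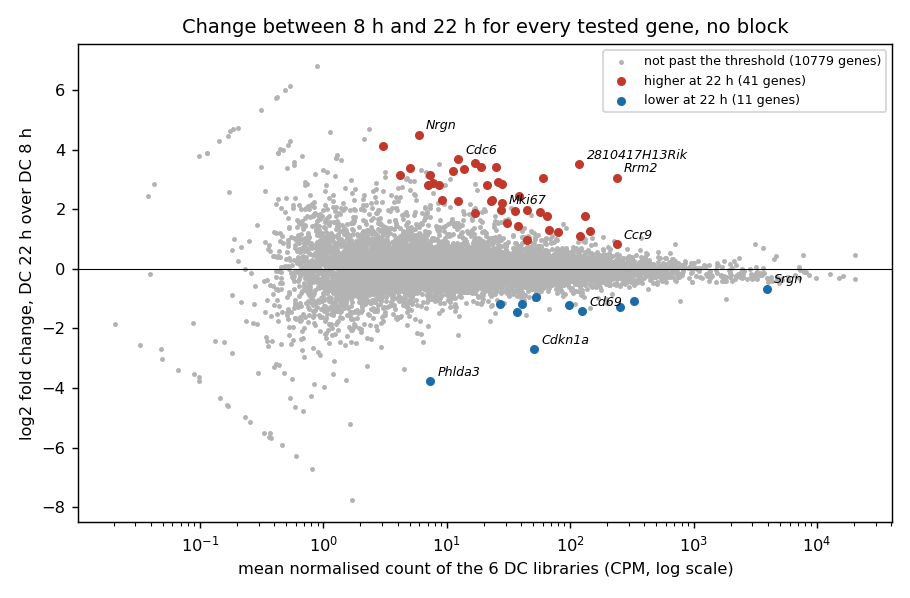
Log2 fold change between 22 h and 8 h of dendritic cell stimulation (vertical axis) against mean CPM over the 6 DC libraries (horizontal axis, log scale), 1 point per tested gene, with called genes coloured by direction. The 41 higher genes reach 4.50 on the log2 scale, and the 11 lower genes lie between -3.77 and -0.66.

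Of the 41 higher genes, 27 belong to the lists of DNA replication, mitosis and G1 control. With a list of replication histones and high mobility group proteins, which gave no call, 128 genes of these cell cycle lists were tested. The genes move together, and their promoters can be read for the letters that E2F factors and the cell cycle repressor complexes are known to bind. Promoter sequences came from RefSeq on GRCm38.p6, in which 33 of the 41 higher genes matched a symbol, with 38 promoters. In the 250 bases before the start, on both strands, 8 of the 38 (21.1%) held TTTCCCGC, TTTCGCGC, TTTGCCGC or TTTGGCGC, forms of the E2F motif, against 611 of 32851 promoters of the whole table (1.86%) and 386 of 11056 promoters of tested genes (3.49%). The cell cycle homology region TTTGAA, the letters of a site bound by DREAM and B-MYB complexes, was in 10 of the 38 (26.3%), against 5252 of all promoters (15.99%) and 1183 of those of tested genes (10.7%). In the promoters of called genes no match of one motif overlapped a match of the other. Neither motif was in the 10 promoters of the 8 lower genes that matched. The letters were chosen after the called genes were known, and a match describes the sequence and is no evidence of binding. The 4 promoters below belong to genes whose values follow, with the matches in capitals on either strand (GCGGGAAA and TTCAAA are the opposite-strand forms), 5′ to 3′ in the direction of the gene. The stretches end at the base before the start, except that of Cdk1, which ends 27 bases before it. They lie at chr11:98908001-98908150 (plus strand) for Cdc6, chr10:69352939-69353062 (minus) for Cdk1, chr7:135716380-135716529 (minus) for Mki67 and chr11:99024190-99024339 (minus) for Top2a.
Cdc6: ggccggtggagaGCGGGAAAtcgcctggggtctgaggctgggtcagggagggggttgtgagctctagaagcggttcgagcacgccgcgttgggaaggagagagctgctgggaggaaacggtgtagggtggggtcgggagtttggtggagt
Cdk1: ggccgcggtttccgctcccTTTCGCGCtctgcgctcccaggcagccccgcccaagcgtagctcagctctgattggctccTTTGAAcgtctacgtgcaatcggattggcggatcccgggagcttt
Mki67: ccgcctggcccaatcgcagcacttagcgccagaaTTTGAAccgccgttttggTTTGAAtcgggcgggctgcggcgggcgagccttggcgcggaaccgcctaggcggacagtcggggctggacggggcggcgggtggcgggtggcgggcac
Top2a: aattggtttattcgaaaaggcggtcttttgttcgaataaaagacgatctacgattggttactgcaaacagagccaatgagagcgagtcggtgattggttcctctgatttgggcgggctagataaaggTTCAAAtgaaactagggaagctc
The E2F letters of Cdc6, which loads the replicative helicase at origins, begin 138 bases before its start. Cdk1, the kinase that drives entry into mitosis, holds the E2F letters 131 bases and TTTGAA 71 and 15 bases before its start, the last outside the stretch shown. Mki67, the gene of the proliferation marker Ki-67, has TTTGAA at 116 and at 98 bases, and Top2a, which untangles replicated chromosomes, has it on the opposite strand at 23 bases and, outside the stretch shown, on its own strand at 179 bases.

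Cdc6 (chromosome 11) measured 1.39, 2.61 and 1.32 CPM at 8 h in replicates 1, 2 and 3 and 22.3, 39.9 and 7.09 CPM at 22 h. Its lowest 22 h library lay above its highest 8 h library, and its unstimulated libraries, at 5.59 to 6.33 CPM, lay between the groups. The log2 fold change of Cdc6 was 3.69 ± 0.54 (SE, n = 3 per group, edgeR adjusted p = 0.00907). Clspn (chromosome 4), whose product claspin guards replication forks, went from 1.58, 4.22 and 2.202 CPM to 21.2, 61.4 and 11.5 CPM, a log2 fold change of 3.55 ± 0.54 (edgeR adjusted p = 0.0102). Lig1 (chromosome 7), the ligase that joins Okazaki fragments, went from 13.5, 9.19 and 13.1 CPM to 74.4, 90.7 and 32.3 CPM, a log2 fold change of 2.46 ± 0.33 and the smallest p-value of all tested genes (edgeR adjusted p = 0.00661). Of the 6 subunits of the MCM2-7 helicase, Mcm4 (log2 fold change 1.30) and Mcm7 (1.27) passed the test. Mcm7 measured 79.4, 84.7 and 91.0 CPM at 8 h and 168, 326 and 120.0 CPM at 22 h, and its groups did not overlap. Cdc45, the helicase's partner, rose by 3.35 on the log2 scale, Gins2 by 2.29 and the histone chaperone subunits Chaf1a and Chaf1b by 3.14 and 1.43.

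Genes of enzymes that supply the building blocks of DNA were among those called. Rrm2 (chromosome 12), the regulated subunit of ribonucleotide reductase, measured 34.3, 58.0 and 60.3 CPM at 8 h and 371, 788 and 117 CPM at 22 h, a log2 fold change of 3.07 ± 0.48 (edgeR adjusted p = 0.0107). Replicate 3 was the lowest and replicate 2 the highest at 22 h, a span larger than the gap between the groups. The thymidine kinase gene Tk1 (chromosome 11) went from 5.74, 3.35 and 3.67 CPM to 44.0, 84.4 and 10.8 CPM (log2 fold change 3.43 ± 0.71, edgeR adjusted p = 0.0399). Dut, whose product keeps uracil out of DNA, measured 49.3, 77.4 and 51.8 CPM and then 164, 359.7 and 94.7 CPM (1.79 ± 0.35, edgeR adjusted p = 0.0283). Tyms and Rrm1 rose by 2.31 and 1.97 on the log2 scale. The order of the replicates at 22 h was shared: replicate 2 was the highest in 37 of the 41 higher genes and replicate 3 the lowest in 37. Mitochondrial ribosomal RNA took 4.49% of the counts of 22 h replicate 3, against 2.76% and 1.95% in 22 h replicates 1 and 2 and 1.82% to 2.24% at 8 h, and its part in the order of the replicates was not tested.

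The DNA replication list holds 46 tested genes, of which 16 rose by the edgeR test (against 0.379% of all tested genes) and none fell. Its median log2 fold change was 1.44 against 0.002 over all tested genes, all 46 were higher at 22 h in the mean, and 43 were higher at 22 h in every numbered pair of libraries, against 1957 of all 10831 genes (18.1%). Every 22 h library lay above every 8 h library in 34 of the 46 (73.9%, against 6.88% of all genes). The summed level of the list was 1224, 1583 and 1246 CPM at 8 h and 3036, 5372 and 1799 CPM at 22 h. At 0 h the sum was 1487 to 1676 CPM, so that the 8 h libraries lay within or below the range of unstimulated cells, and 34 of the 46 genes had a lower mean at 8 h than at 0 h. All 46 had a higher mean at 22 h than at 0 h. Leaving out 1 library at a time changed the 16 calls to between 0 (8 h replicate 1) and 32 (22 h replicate 3), all higher, with medians of 0.93 to 1.74, and leaving out replicate 2 at both times gave 7 calls and a median of 1.12. In bulk RNA, more cells in a state and more RNA per cell cannot be told apart.

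**Figure D2:**
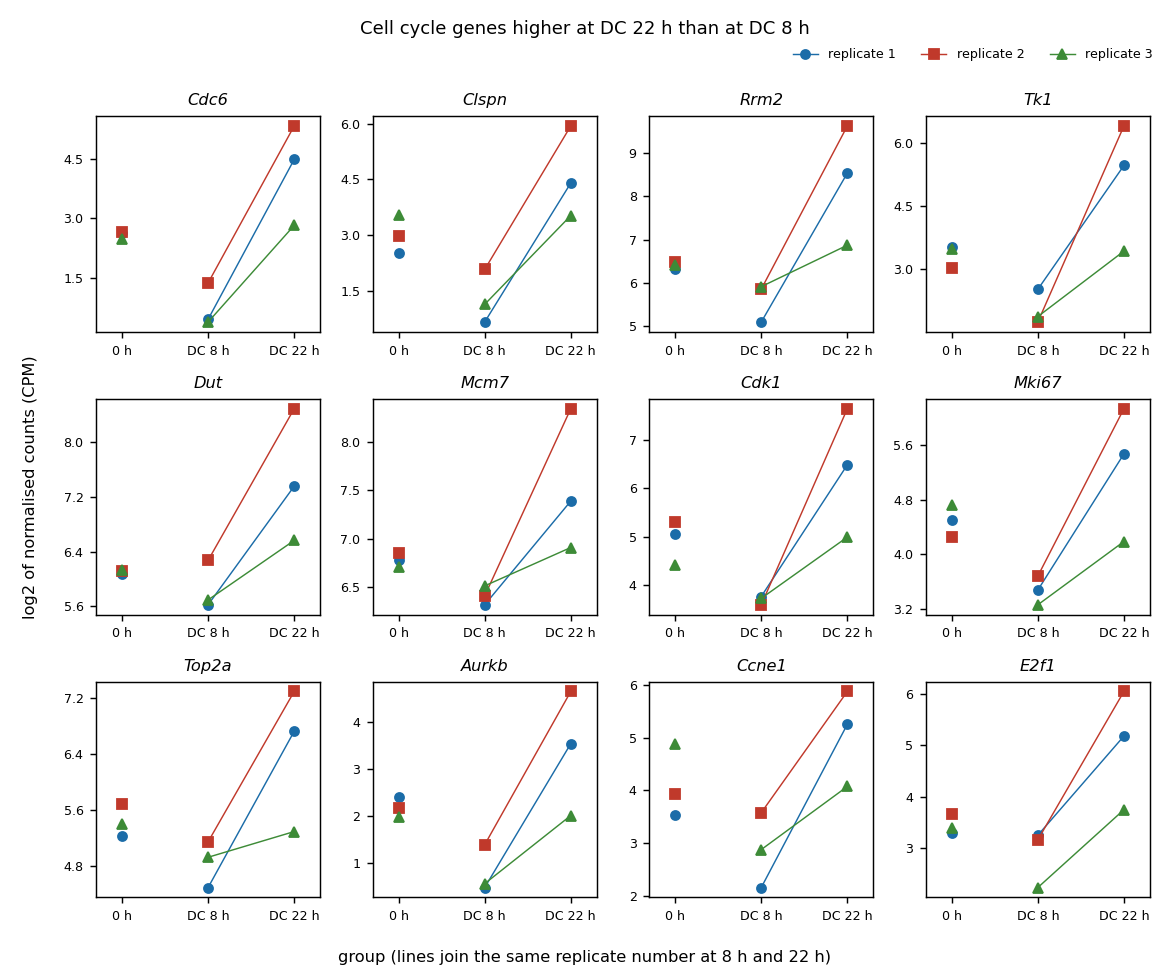
Log2 CPM of 12 cell cycle genes in each library at 0 h, at 8 h and at 22 h of dendritic cell stimulation, 1 panel per gene, points for libraries and lines joining the same replicate number at 8 h and 22 h. In every panel the 3 libraries at 22 h lie above the 3 at 8 h, as for Cdc6 with 1.32 to 2.61 CPM at 8 h and 7.09 to 39.9 CPM at 22 h.

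Genes of mitosis were called as well. Cdk1 (chromosome 10) measured 13.6, 12.05 and 13.2 CPM at 8 h and 89.6, 200.2 and 31.8 CPM at 22 h, a log2 fold change of 3.05 ± 0.48 (edgeR adjusted p = 0.0107). Its 8 h libraries were close together and its 22 h libraries far apart, with replicate 2 the highest. Mki67 (chromosome 7) went from 11.1, 12.8 and 9.54 CPM to 44.5, 70.6 and 18.2 CPM, a log2 fold change of 1.99 ± 0.35 (edgeR adjusted p = 0.0189), and Top2a (chromosome 11) from 22.4, 35.3 and 30.2 CPM to 106, 157 and 39.1 CPM (1.78 ± 0.36, edgeR adjusted p = 0.0286). Replicate 3 of Mki67 at 22 h, at 18.2 CPM, was below the unstimulated libraries, which measured 22.6, 19.2 and 26.3 CPM. The spindle checkpoint kinase gene Bub1 and the Aurora kinase gene Aurkb were low at 8 h, with 0.147 to 0.497 and 1.39 to 2.61 CPM, and rose by 4.12 and 2.89 on the log2 scale. Of the 51 tested genes of the mitosis list 9 rose (against 0.379% of all tested genes) and none fell, with a median log2 fold change of 1.41, and 19 had every 22 h library above every 8 h library (37.3%, against 6.88%). Their summed level was 1222, 1006 and 1259 CPM at 8 h and 2065, 2835 and 1356 CPM at 22 h, with replicate 3 the lowest again. The sum was 1265, 1445 and 1332 CPM at 0 h, so that 22 h replicate 3 lay within the range of the unstimulated libraries. Without replicate 2 at both times none of the 51 passed (median 0.81), and without 1 library 0 (8 h replicate 1 or 2) to 20 (22 h replicate 3) did, all higher.

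Control genes of the step from G1 into DNA synthesis changed in both directions. The cyclin E gene Ccne1 (chromosome 7) measured 4.46, 11.9 and 7.34 CPM at 8 h and 38.1, 58.7 and 16.8 CPM at 22 h, a log2 fold change of 2.26 ± 0.45 (edgeR adjusted p = 0.0283). E2f1 (chromosome 2), the gene of an E2F activator, went from 9.51, 8.94 and 4.70 CPM to 36.2, 66.0 and 13.4 CPM (2.31 ± 0.48, edgeR adjusted p = 0.0399). Cdkn1a (chromosome 17), which encodes the cyclin-dependent kinase inhibitor p21, fell from 51.1, 169 and 46.1 CPM to 17.4, 14.9 and 8.55 CPM, a log2 fold change of -2.70 ± 0.51 (edgeR adjusted p = 0.0268). All 3 libraries of Cdkn1a at 22 h remained above the unstimulated ones, which reached 5.59 CPM. These 3 genes were the only calls among 17 tested genes of the list (against 0.379% of all tested genes higher and 0.102% lower), whose median log2 fold change was 0.39. Leaving out any library but 8 h replicate 3 or 22 h replicate 3 left no call in the list, those 2 fits gave 1 lower call and 3 higher with 1 lower, and the median was 0.35 to 0.63, the highest without 8 h replicate 2. Without replicate 2 at both times the list had no call and a median of 0.29, and the changes were 2.26 for Ccne1, 1.81 for E2f1 and -1.88 for Cdkn1a, with edgeR adjusted p-values of 0.0883, 0.275 and 0.219.

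The 14 higher genes outside these lists include others with known roles in the cycle: 2810417H13Rik (also named Pclaf, a partner of the sliding clamp PCNA), Dtl (a ubiquitin ligase adaptor active in S phase), Asf1b (a histone chaperone) and Ska1, Sgol1, Kntc1 and Kif15 (chromosome segregation). 2810417H13Rik (chromosome 9) measured 13.4, 17.5 and 27.0 CPM at 8 h and 195, 398 and 62.1 CPM at 22 h, a log2 fold change of 3.51 ± 0.48 (edgeR adjusted p = 0.00661). Others are not known as cell cycle genes. Ccr9 (chromosome 9), a chemokine receptor that guides T cells to the small intestine, measured 169, 175 and 168 CPM at 8 h and 312, 296 and 306 CPM at 22 h. Its libraries agreed closely at each time, and its log2 fold change was 0.84 ± 0.14 (edgeR adjusted p = 0.0126), with 236 to 295 CPM in the unstimulated cells. Acap1 and Gng2, the latter a G protein subunit gene, also stood below the unstimulated level at 8 h and rose by 0.98 and 1.54. Unlike Ccr9, Gng2 was still below it at 22 h, with 43.1, 38.7 and 56.5 CPM against 61.4 to 72.8 CPM at 0 h. For Acap1 and Gng2 replicate 3 and not replicate 2 was the highest at 22 h. Nrgn, which encodes the calmodulin-binding protein neurogranin, had the highest fold change of the 41, from 0.495, 0.124 and 0.881 CPM to 10.9, 19.2 and 4.02 CPM (log2 4.50 ± 0.76, edgeR adjusted p = 0.0128).

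The 11 genes that fell include genes of the early activation response, of NF-kB signalling and of stress. Cd69 (chromosome 6), the marker of recent activation, measured 135, 291 and 121 CPM at 8 h and 60.0, 80.0 and 63.5 CPM at 22 h, a log2 fold change of -1.43 ± 0.28 (edgeR adjusted p = 0.0283). Replicate 2 was the highest at both times. The unstimulated libraries held 229, 153 and 250.4 CPM of Cd69, above both other replicates at 8 h. Birc3 (chromosome 9), an inhibitor of apoptosis and a target of NF-kB, went from 47.9, 66.4 and 55.9 CPM to 26.4, 23.6 and 24.8 CPM (-1.19 ± 0.20, edgeR adjusted p = 0.0128). Relb (chromosome 7), an NF-kB subunit, went from 66.1, 69.7 and 73.1 CPM to 32.0, 33.7 and 42.6 CPM (-0.94 ± 0.18, edgeR adjusted p = 0.0283). Both were above their unstimulated level at 8 h, and at 22 h all 3 libraries still were.

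Dusp2, a phosphatase that restrains MAP kinases, fell by 1.27 on the log2 scale, from 286, 516 and 272 CPM to 179, 165 and 103 CPM, and its unstimulated libraries were above both, at 568, 538 and 672 CPM. Ppp1r15a, whose product restores translation after stress, fell by 1.44, from 66.1, 35.6 and 61.5 CPM to 22.4, 14.7 and 22.9 CPM, with 325 to 438 CPM in the unstimulated libraries. Srgn, the proteoglycan core of cytotoxic granules, was the most abundant of the 11 and fell by 0.66, from 4464, 5430.1 and 4491 CPM to 3252, 2914 and 2912 CPM. Anxa2, which encodes a membrane-binding annexin, had tightly grouped libraries, 38.5, 36.3 and 38.8 CPM at 8 h and 14.7, 17.0 and 18.0 CPM at 22 h, and a log2 fold change of -1.19 ± 0.20 (edgeR adjusted p = 0.0128). Arap2, a regulator of small GTPases, fell by 1.20, Ptp4a3, a phosphatase gene, by 1.07 and Phlda3, a target of p53 as is Cdkn1a, by 3.77. In the fit without replicate 2 at both times, Ppp1r15a was the only one of the 11 to keep an edgeR adjusted p under 0.05 (0.0393).

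**Figure D3:**
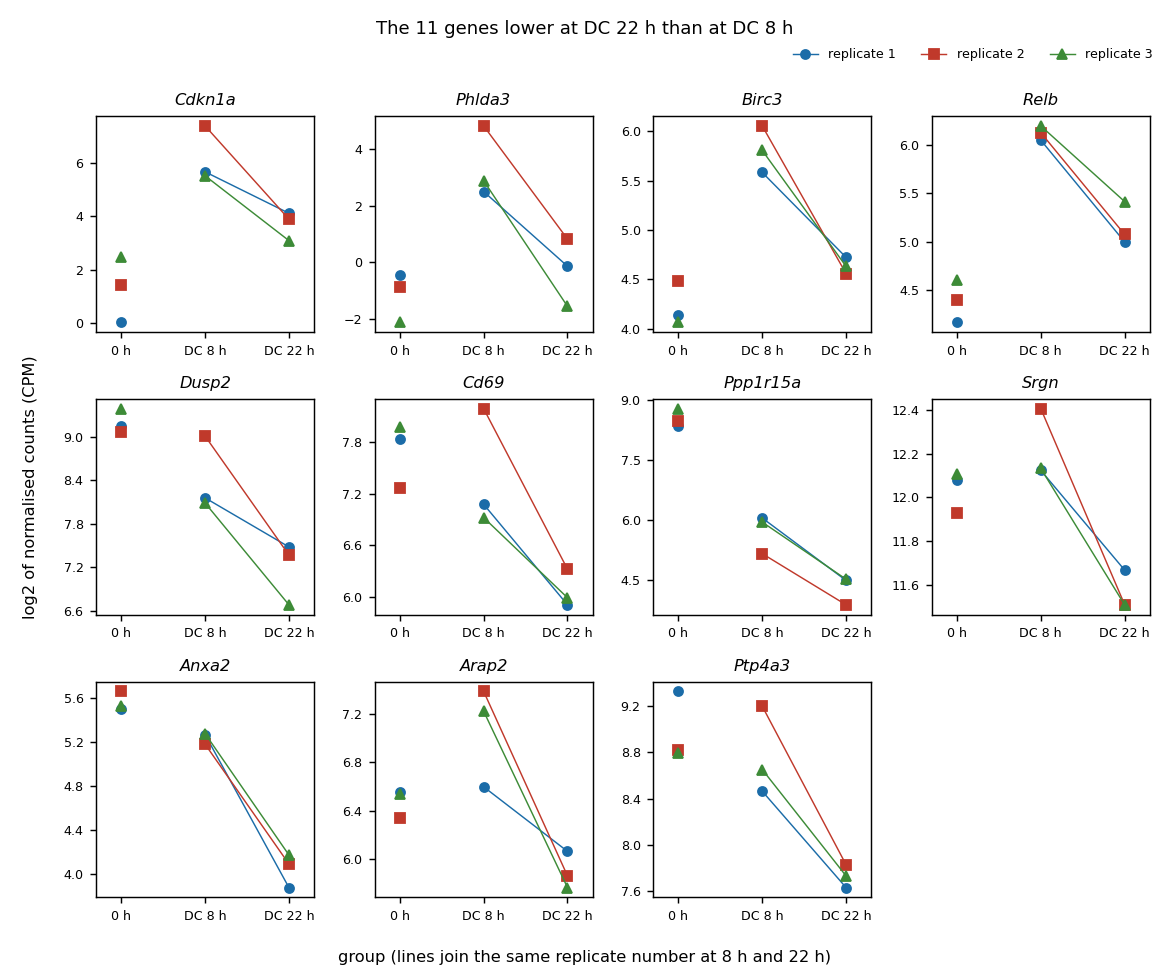
Log2 CPM of the 11 genes that were lower at 22 h than at 8 h, in each library at 0 h, 8 h and 22 h of dendritic cell stimulation, 1 panel per gene, with lines joining the same replicate number. The 3 libraries at 22 h lie below the 3 at 8 h in every panel, as for Anxa2 with 36.3 to 38.8 CPM at 8 h and 14.7 to 18.0 CPM at 22 h.

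The tables do not state strand use, and reads of overlapping genes may have been counted together. In the GENCODE vM21 annotation 16 of the 52 genes share exonic bases with another gene, among them Lig1, Ccr9, Gng2, Anxa2, Chaf1a, Fam111a, Cdc45, Cdkn1a, Ppp1r15a, Top2a, Gins2, Tk1, Mcm7 and Ncapd2. Of the genes named below, Fen1, Rad54l, Ezh2, Brca2, Bax, Bhlhe40, Eomes, Cxcl10, Cd74, Gbp2, Ifng and Clec9a do as well.

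With the replicate number as a block in a fit of the 6 DC libraries, 166 of 10182 tested genes differed (edgeR adjusted p under 0.05), 103 higher at 22 h (1.01%) and 63 lower (0.619%). The same 6 libraries without the block gave 0 genes (smallest edgeR adjusted p 0.222, 776 genes at an unadjusted p under 0.05), against 1618 at an unadjusted p under 0.05 with it. Of the 52 genes above, 49 were called, and Fam111a, Kif15 and Mcm7 had edgeR adjusted p-values of 0.0555, 0.0866 and 0.0578. The other 117 were 65 higher and 52 lower genes. All 166 moved the same way in each of the 3 numbered pairs, against 18.1% of all 10831 genes higher and 19.4% lower in every pair. A fit blocked on these pairs selects for such agreement, so it is no support for the calls. In 31 of the 166 the groups overlapped. The fit has 2 residual degrees of freedom per gene, and the same block in a fit of all 15 libraries called 49 genes, of which 44 are among the 52. Of the 117 genes called with the block in 6 libraries and not without it, this fit called 4, among them Hells, and all 117 kept their direction, so that the genes given below as called with the block rest on the fit of 6 libraries. In the fit of 15 the edgeR adjusted p was 0.650 for Gzmb, 0.559 for Ccl3, 0.155 for Eomes, 0.352 for Irf4, 0.0874 for Mcm5, 0.1245 for Pcna, 0.170 for Nfkbia and 0.491 for H2-Eb1. The 8 of the 52 that it did not call, with edgeR adjusted p-values of 0.0522 to 0.0738, were Sgol1, Spc24, E2f1, Kif15, Chaf1b, Mcm7, Tk1 and Ncapd2.

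Under the block more genes of DNA replication and mitosis rose, and the same 2 higher genes of the G1 list, Ccne1 and E2f1. In DNA replication 25 of 45 tested genes rose and none fell, in mitosis 11 of 50 rose and none fell, against 1.01% of all genes higher in this fit, and of the 103 higher genes 39 belong to the cell cycle lists, Hmgb2 of the histone and high mobility group list included. Mcm5 (chromosome 8), a helicase subunit, measured 39.8, 62.0 and 35.7 CPM at 8 h and 111, 209 and 67.9 CPM at 22 h. Its log2 fold change was 1.39 ± 0.18 with the block (edgeR adjusted p = 0.0116) and 1.49 ± 0.35 without it (0.0734). Pcna (chromosome 2), the sliding clamp, went from 212, 322 and 215 CPM to 465, 769 and 289 CPM (0.93 ± 0.16 with the block, edgeR adjusted p = 0.0255). Mcm2, Mcm3, Fen1 and the condensin genes Smc2 and Smc4 were called in this fit as well. The following single genes are outside the lists and were picked after their values were seen. The checkpoint kinase gene Chek1 rose by 3.05 on the log2 scale, the recombination genes Rad54l and Brca2 by 3.13 and 2.05 and the chromatin remodeller gene Hells by 2.68. Dnmt1, the maintenance DNA methyltransferase, rose by 0.97 and Ezh2, the histone methyltransferase of Polycomb repression, by 1.03.

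With the block 1 of 12 tested cytotoxic effector genes rose, Gzmb, and 1 fell, Srgn, which was also called without it, against 1.01% of all genes higher and 0.619% lower in this fit. Gzmb (chromosome 14), the gene of granzyme B, measured 67.9, 282 and 113 CPM at 8 h and 109.7, 591 and 187 CPM at 22 h. The 2 groups overlap, and the numbered pairs rose by 0.69, 1.07 and 0.73 on the log2 scale. The log2 fold change was 0.82 ± 0.13 with the block (edgeR adjusted p = 0.0158) and 0.94 ± 0.52 without (0.654). The chemokine gene Ccl3 (chromosome 11) went from 4.36, 19.1 and 1.47 CPM to 11.4, 82.5 and 3.33 CPM (1.67 ± 0.26 with the block, edgeR adjusted p = 0.0158). It was the 1 of 7 tested chemokines that rose, and Cxcl10, an interferon-induced chemokine, fell, from 37.5, 191 and 63.4 CPM to 16.05, 85.3 and 14.3 CPM (-1.51 ± 0.21, edgeR adjusted p = 0.0133). Of 19 tested effector transcription factors 3 fell (against the same 0.619%) and none rose. Eomes (chromosome 9), a T-box factor of effector and memory cells, went from 151, 214 and 89.6 CPM to 53.2, 107 and 42.0 CPM (-1.21 ± 0.14 with the block, edgeR adjusted p = 0.0116). Irf4 (chromosome 13), which scales with the strength of the receptor signal, went from 41.8, 128 and 27.6 CPM to 6.37, 57.5 and 4.19 CPM (-2.10 ± 0.30, edgeR adjusted p = 0.0135). In replicates 1 and 3 at 22 h Irf4 was below the 10.3 to 13.97 CPM of the unstimulated cells. Bhlhe40, another factor induced by activation, fell by 1.01 on the log2 scale. Ifng, Il2ra, Tnfrsf9, Myc, Prf1 and Il7r were called in neither fit. Ifng measured 5.45, 30.4 and 3.67 CPM at 8 h and 4.67, 75.4 and 5.47 CPM at 22 h, so that its mean rested on replicate 2.

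**Figure D4:**
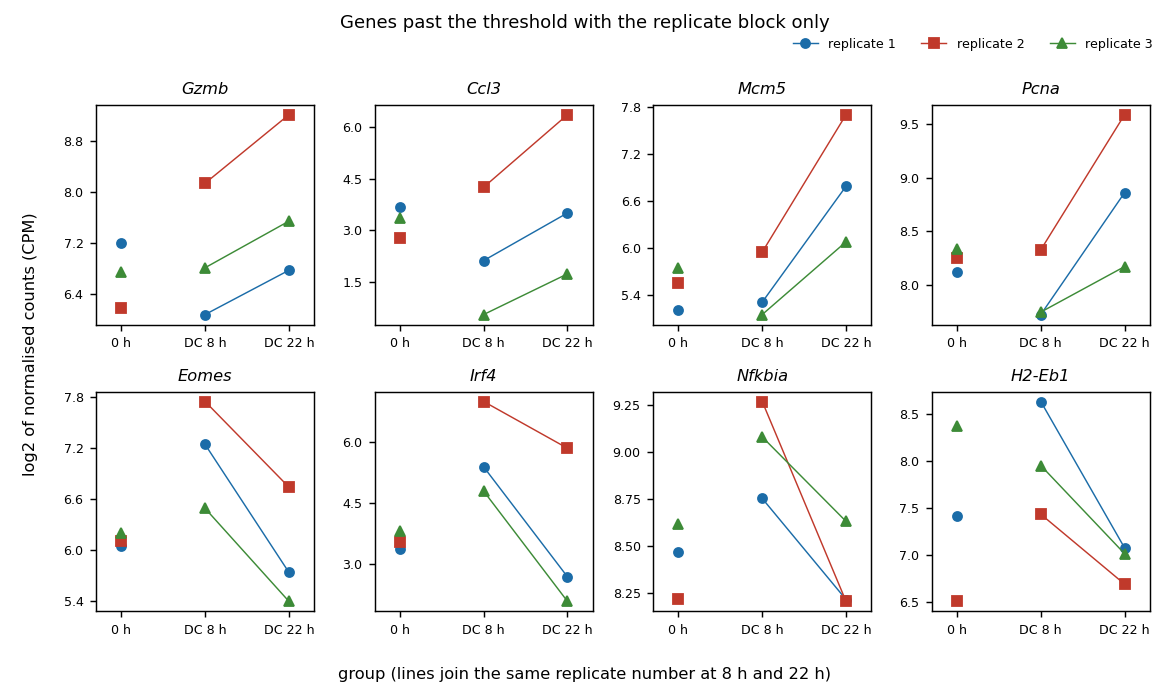
Log2 CPM of 8 genes that were called only with the replicate number in the model (Gzmb, Ccl3, Mcm5, Pcna, Eomes, Irf4, Nfkbia and H2-Eb1), in each library at 0 h, 8 h and 22 h, with lines joining the same replicate number. The lines within a panel run the same way, which the block selects for, as for Gzmb at 67.9 to 109.7, 282 to 591 and 113 to 187 CPM.

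Of 24 tested NF-kB genes 2 fell without the block (Relb and Birc3, against 0.102% of all tested genes) and 6 with it (against 0.619%), which adds Nfkbia, Nfkbid, Tnfaip3 and Tnip1, and none rose in either fit. The added members are feedback inhibitors of the pathway. Nfkbia (chromosome 12), the gene of IκBα, measured 431, 616 and 541 CPM at 8 h and 298, 296 and 397 CPM at 22 h, a log2 fold change of -0.69 ± 0.14 with the block (edgeR adjusted p = 0.0435). The list's median log2 fold change without the block was -0.50, 23 of 24 members were negative, 16 were lower in every pair (against 19.4% of all genes) and 11 had every 22 h library below every 8 h library (45.8%, against 6.99%). Without replicate 2 at both times none passed and the median was -0.33, and without 1 library between 0 and 4 fell. Of the 26 tested early response factors 1 fell, Dusp2 (against 0.102% of all tested genes), with a list median of -0.52. With the block Ier2 fell as well, so that 2 of 25 tested fell (against 0.619%). The list took 0.479% to 0.616% of counts at 0 h, 0.298% to 0.324% at 8 h and 0.242% to 0.294% at 22 h, and 18 of the 26 had a lower mean at 8 h than at 0 h. Of 20 tested survival and death genes 3 fell with the block (against 0.619%), which added Bcl2l11 (-0.68), which encodes the pro-apoptotic protein BIM, and Bax (-1.11), a further p53 target, to Cdkn1a.

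None of 41 tested antiviral genes passed without the block, with a median log2 fold change of -0.23, and 2, Oas3 and Oasl2, fell with it (against 0.619% of all genes in that fit). Of 26 tested genes of interferon gamma GTPases and class I presentation none passed without the block (median -0.08), and 2, Gbp2 and H2-K1, fell with it (against the same 0.619%). Ribosome biogenesis (56 genes, median -0.05), glycolysis (18 genes, 0.29), the proteasome (36 genes, -0.12) and T cell identity (15 genes, 0.01) gave no call in either fit. Of 19 tested chemokine and homing receptors the block fit called 3 (against 1.01% of all genes higher), Cxcr3 (0.96), which directs effector cells to inflamed tissue, and the integrin genes Itgb7 (0.73) and Itgb2 (0.63), each higher at 22 h and each below its unstimulated level at both times.

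**Figure D5:**
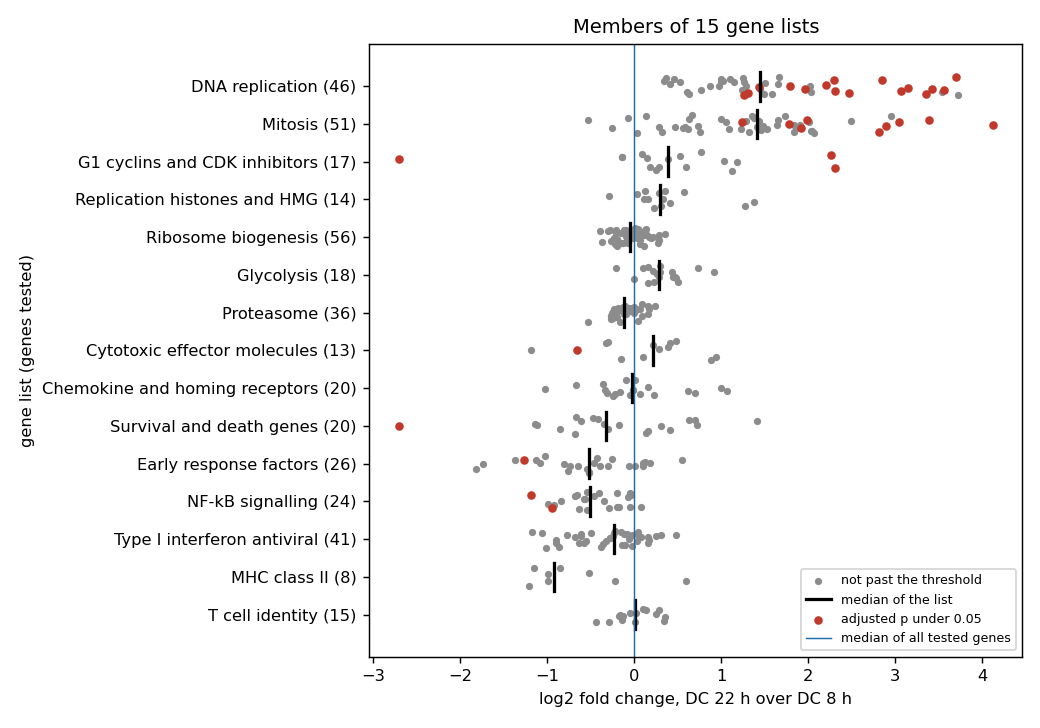
Log2 fold changes between 22 h and 8 h of dendritic cell stimulation for the tested genes of 15 lists, 1 point per gene and a line at the median of each list. DNA replication and mitosis have medians of 1.44 and 1.41, NF-kB signalling has -0.50 and MHC class II -0.92 (-0.61 without replicate 2 at both times).

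Dendritic cells were in these wells, and their transcripts were measured alongside. MHC class II genes, which dendritic cells carry and mouse T cells hardly do, had 7 of 8 members lower at 22 h and a median log2 fold change of -0.92. None passed without the block, and H2-Aa, H2-Eb1 and Cd74 fell with it (3 of 8, against 0.619% of all genes), by 1.05, 1.09 and 0.88 on the log2 scale. Without replicate 2 at both times the median of the list was -0.61, with no call. H2-Eb1 (chromosome 17) measured 396, 173 and 247 CPM at 8 h and 135, 103 and 129 CPM at 22 h, and 170.1, 90.9 and 331 CPM in unstimulated cells, which had no dendritic cells added. Fscn1, an actin bundler of mature dendritic cells, measured 168, 132 and 126 CPM at 8 h and 94.8, 87.6 and 72.9 CPM at 22 h against 0, 0.181 and 6.75 CPM at 0 h, and fell by 0.74 with the block. The 20 mature dendritic cell markers together took 0.106% ± 0.0084 of counts at 8 h and 0.0882% ± 0.0127 at 22 h (SD, n = 3), with an exact two-sided permutation p of 0.1, the smallest that 3 against 3 libraries can give. The unstimulated libraries, without added dendritic cells, had 0.0887% to 0.102% in the same list. The immunofilament libraries, also without them, had less, 0.0574% to 0.0702% at 8 h and 0.0530% to 0.0589% at 22 h. Relb is a member of that list as well as of the NF-kB list. MHC class II took 0.0644% to 0.0949% of counts at 8 h and 0.0341% to 0.0539% at 22 h. Its share was 0.0419% to 0.107% in the unstimulated libraries. Under immunofilaments it was 0.0142% to 0.0390% at 8 h and 0.0330% to 0.0479% at 22 h. The plasmacytoid dendritic cell list took 0.0204% to 0.0234% and then 0.0363% to 0.0376%, but Ccr9 is one of its members, Klk1 was at 0 in all 6 libraries and Siglech did not exceed 4.44 CPM. The T cell identity list took 0.605% to 0.736% at 8 h and 0.689% to 0.828% at 22 h. The conventional type 1 dendritic cell list, which holds Irf8, summed to 130.1, 301 and 113 CPM at 8 h and 95.0, 535 and 75.0 CPM at 22 h, with replicate 2 apart, and the type 2 list, which holds Irf4, to 45.2, 131 and 30.7 CPM and then 11.5, 60.6 and 7.78 CPM. Clec9a, a defining type 1 marker, did not exceed 0.745 CPM and Clec10a, one of type 2, 0.341 CPM. Of the marker lists of other cells, the summed level over the 6 libraries was 179 to 436 CPM for NK cells, 33.8 to 49.99 CPM for macrophages and monocytes, 6.33 to 21.6 CPM for B cells, 0.994 to 3.08 CPM for CD4 and regulatory T cells and 0 to 2.64 CPM for neutrophils. The erythrocyte list summed to 25.1, 8.45 and 28.0 CPM at 8 h and 0.114, 12.8 and 0.171 CPM at 22 h. Their members C1qa, Ebf1, Cd4, Ncr1, Klra8, Retnlg and Mmp9 were at 0 in all 6. The part of dendritic cell RNA in the fall of Relb, the NF-kB genes and MHC class II was not tested.

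Under immunofilaments, which share none of these 6 libraries, 121 genes differed between 22 h and 8 h (1.12%, edgeR adjusted p under 0.05), 69 higher and 52 lower. The median log2 fold change of all 10831 tested genes was -0.008 there. Of the 41 higher genes 39 had the same sign under immunofilaments and 13 were called, and of the 11 lower genes 9 and 3. The share of all genes with the same sign under both was not computed. The DNA replication list had medians of 1.44 under dendritic cells and 1.11 under immunofilaments, with 16 and 9 of 46 genes called higher. Mitosis had medians of 1.41 and 0.29, with 0 of 51 genes called under immunofilaments. NF-kB signalling had medians of -0.50 under both, with 2 and 6 of 24 genes called lower, against 11 and 52 of all tested genes. MHC class II had medians of -0.92 under dendritic cells and 0.68 under immunofilaments, with no call in either. Mki67 measured 15.7, 23.9 and 20.1 CPM at 8 h and 19.2, 18.4 and 20.9 CPM at 22 h of immunofilaments, a log2 fold change of -0.02 ± 0.35 against 1.99 ± 0.35 under dendritic cells. The difference between these changes was 2.01 (edgeR adjusted p = 0.243). For Ccr9 the change under immunofilaments was -0.26 ± 0.14, and the difference of 1.09 had an edgeR adjusted p of 0.0879. Anxa2 fell by 1.19 under dendritic cells and had 0.51 ± 0.20 under immunofilaments. The difference of -1.70 had an edgeR adjusted p of 0.0819, and no gene had a lower one. No gene passed the edgeR test of the difference between the 2 changes, where 858 genes had an unadjusted p under 0.05. DESeq2 called 40 and edgeR without the filter on low counts 155, while leaving out 8 h replicate 2 gave 1 gene and leaving out 22 h replicate 3 gave 3.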

How the data were processed

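RNA of sorted CD8+ T cells was sequenced by an adapted CEL-seq protocol on a NextSeq 500, per the labels' protocols. BWA and mm10 are named in the submitters' processing notes; the counting program, strand use and use of molecular identifiers are not given in the sources used here. The authors deposited raw counts per gene symbol, without normalization, with a chromosome and no coordinates; 370 of 17493 genes had no count. The members and lists were chosen with earlier results of these data known.

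Counts were fitted with edgeR 4.0.16 (R 4.3.3, limma 3.58.1): filterByExpr (minimum count 10, total 15), TMM scaling, 1 quasi-likelihood model of 5 group means over all 15 libraries, so that the groups share 1 estimate of the spread. Two-sided p-values were adjusted over all tested genes (Benjamini-Hochberg, threshold 0.05), and log2 fold changes used a prior count of 0.125. CPM values are scaled by TMM. An exact permutation test was used for the marker share. DESeq2 1.42.0 was an alternative, with other scalings, filters, subsets, thinned counts and left-out libraries. The scripts were tested on simulated data.

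The named genes follow a rule. A called gene qualified when its higher group averaged 50 counts or more, some library of its lower group exceeded 3 counts and the groups did not overlap; taken were the 12 most extreme and the 6 smallest p-values per direction, a fixed panel, up to 6 genes per list by p-value and 3 by level, and markers of other cells. Beyond the rule, all 52 called genes were open to naming, as were genes called only with the block; these were chosen after their values were seen.

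Same-numbered libraries deviated together from their group means at 8 h and 22 h: the correlations across genes were 0.116, 0.399 and 0.238 for numbers 1, 2 and 3, and -0.307 to 0.117 for the 6 pairs of unlike number, of which 8 h replicate 3 with 22 h replicate 1 (0.117) and 8 h replicate 1 with 22 h replicate 3 (0.107) were close to number 1. As the 3 same-number correlations were above 0.1, the numbers were taken to pair the libraries. Those unlike pairs of numbers 1 and 3 also lay above 0.1, so the check cannot decide whether numbers 1 and 3 are paired. The titles repeat Don1 to Don3 in every group without saying what Don stands for, so the pairing rests on this check. Replicates of a group differed by far more than sampling noise. Promoters were read from RefSeq (GRCm38.p6) and exon overlaps from GENCODE vM21. Some called genes are not reported here.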

Additional observations from a re-analysis of the deposited data

How the results depend on the processing

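The 52 called genes kept their direction under every alternative that gave them a value, and 0 values reversed. Without the filter on low counts edgeR called 251 genes (183 higher, 68 lower), and DESeq2 called 210 (141 and 69), in both cases with all 52 among them. At an adjusted p under 0.01 there were 4 (4 and 0). The 6 DC libraries alone gave 0 (0 and 0), with 776 genes at an unadjusted p under 0.05, and with the replicate block they gave 166 (103 and 63). Without replicate 2 at both times, an alternative added after seeing the data, there were 19 (13 and 6). Leaving out 1 library at a time gave 1 to 138 genes (0 to 113 higher, 1 to 25 lower), and 8 of the 52 were called in 5 of the 6 such fits, among them Lig1, 2810417H13Rik, Cdc6, Uhrf1, Clspn, Rrm2 and Arap2. Some of these alternatives test different numbers of genes or libraries, and others change the threshold or the model. Beyond that the cause of the changes was not tested. The other alternatives for the count of called genes gave values within 1.5 times of it: library size as the only scaling gave 63 (52 and 11), which moved the median of all genes to 0.07 on the log2 scale, and leaving out the IF 22 h group gave 39 (28 and 11). Thinning all DC libraries to the smallest gave 60 (46 and 14), and the replicate block in all 15 libraries gave 49 (37 and 12). For genes whose change differs between dendritic cells and immunofilaments, 0 as reported became 155 without the filter and 40 with DESeq2, and leaving out 1 library gave 0 to 3. The test of that difference needs the immunofilament libraries, so it has no value in the fits of the 6 DC libraries or without the IF 22 h group. In the 6 DC libraries the replicate block changed no other call in the text than those given beside the results, and in all 15 libraries 8 of the 52 calls were lost. Depth limits the low genes: Bub1 at 8 h rests on 0.147 to 0.497 CPM.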
